A study of Mus musculus with 10 samples.

Results

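The genes described here encode 39 Golgi mannosidases, glycosyltransferases, sialyltransferases, one sulfotransferase, SLC35 family transporters and a UAP1-like protein. They were chosen by gene symbol from a list, and all 39 were found among the 27665 genes of the table. The islets of the pancreas were taken from 10 male mice of C57BL/6J, an inbred laboratory strain with no transgene or deletion named in the labels, and their RNA was sequenced. The mice were 8 to 10 weeks old and were fed either western diet or standard chow for 4 weeks, with 5 mice and 5 libraries per diet. All chow mice came from cage 3, 4 western diet mice came from cage 4 and 1 came from cage 2. No cage held both diets, so diet and cage cannot be told apart. The series title names IRE1 alpha, a stress sensor of the endoplasmic reticulum (ER), and expansion of the Golgi during compensation by beta cells.

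Glycoproteins leave the ER with a mannose-rich N-glycan, which the Golgi trims and rebuilds. Mannosidases remove mannose, N-acetylglucosamine (GlcNAc) transferases start branches on the trimmed core, galactosyltransferases lengthen the branches and sialyltransferases cap them. Other Golgi enzymes build O-linked glycans, proteoglycan chains and glycolipids, and transporters of the SLC35 family carry nucleotide sugars from the cytosol into the lumen. In beta cells, the insulin-producing cells of the islet, N-glycans on the glucose transporter GLUT2 are known to help to hold it at the cell surface.

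On western diet 6 of the 39 genes rose, 2 fell and 31 were not called. The genes that rose were Mgat2 (a GlcNAc transferase), B4galt6 (a galactosyltransferase of glycolipids), Man1a and Man2a1 (mannosidases), Slc35c1 (a GDP-fucose transporter) and Uap1l1. Those that fell were St6gal1 (a sialyltransferase) and B4galt1 (a galactosyltransferase). Shares of the members called were 15.4% higher and 5.13% lower, and among all 15104 genes tested 5.27% were called higher and 5.5% lower (quasi-likelihood test in edgeR, called at a p under 0.05 after Benjamini-Hochberg adjustment over all genes tested). All 39 passed the filter on low counts. The median log2 fold change of the 39 was 0.06, against 0.0050 over all genes tested, and 28 of the 39 lay above 0, against 51% of all genes tested. No change reached 2-fold. The counts of 6 higher and 2 lower were 3 and 1 without chow mouse 1, 3 and 2 without chow mouse 3, and 7 and 2 without the cage 2 mouse. They were 5 and 2 without both chow mouse 1 and the cage 2 mouse, and 1 gene fell without cage 4 mouse 4, cage 4 mouse 5 or chow mouse 4.

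**Figure D1:**
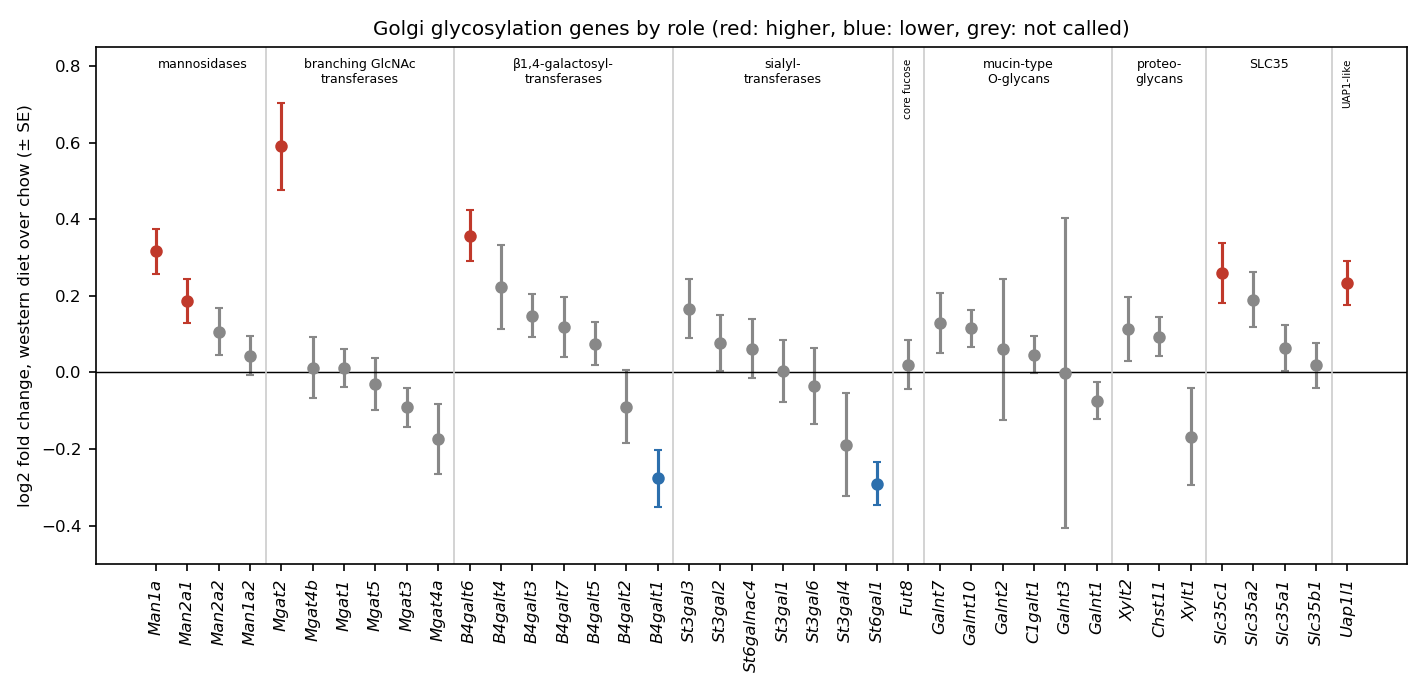
Log2 fold change of western diet over chow for each of the 39 genes (points, with SE as bars), grouped by role along the x axis. The 6 red points are genes that rose, the 2 blue points are genes that fell and the 31 grey points were not called; Mgat2 lies highest at 0.59 and St6gal1 lowest at -0.29.

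Total counts per library ran from 16532518 to 23902681, and the spread between mice was similar in the diets. Values are CPM, read counts brought to a common library total and scaled with edgeR's TMM factors, and intervals are not given because the spread between mice already holds the counting error. The coefficient of variation between mice had a median over the 39 genes of 6.24% on western diet and 6.39% on chow. It was largest for Galnt3, the gene with the fewest reads, at 38.1% and 55.8%. The 39 genes together took 0.214% to 0.231% of the counts on western diet and 0.201% to 0.216% on chow, and these ranges overlapped. Beta cell markers ran high in every library, with a sum over 10 genes of 242908 to 277820 CPM on western diet and 232280 to 268302 on chow. Of these, Iapp and G6pc2 were called higher and Slc2a2, which encodes GLUT2, and Slc30a8 lower.

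Promoter sequence is shown for 5 of the called genes, 3 that rose and 2 that fell, so that their start regions can be compared by motif. RefSeq windows ran from 250 bases before to 50 bases after an annotated start (build GRCm38.p6). They were searched for 28 of the 39 genes, 38 windows in all, and the other genes had no window searched. Each stretch printed is the longest unbroken part of the 250 bases that lies outside every GENCODE M21 exon. It is written 5′ to 3′ along the gene's strand with the motifs below in capitals. Mgat2 is at chr12:69184084-69184156 (plus strand), between its own start and the start of Rpl36al on the other strand. Man1a is at chr10:54075797-54075921 (minus), the upstream start of Slc35c1 at chr2:92460539-92460768 (minus), B4galt1 at chr4:40854006-40854234 (minus) and the most upstream start of St6gal1 at chr16:23224490-23224739 (plus). The other windows of Slc35c1 and St6gal1 are not printed. Nor is that of Man2a1, whose 250 bases hold no stretch outside annotated exons that was long enough to print.
Mgat2: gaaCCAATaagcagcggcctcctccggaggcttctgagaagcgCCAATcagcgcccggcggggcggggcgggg
Man1a: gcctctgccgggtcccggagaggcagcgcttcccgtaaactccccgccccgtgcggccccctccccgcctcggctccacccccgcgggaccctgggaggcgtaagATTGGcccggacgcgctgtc
Slc35c1: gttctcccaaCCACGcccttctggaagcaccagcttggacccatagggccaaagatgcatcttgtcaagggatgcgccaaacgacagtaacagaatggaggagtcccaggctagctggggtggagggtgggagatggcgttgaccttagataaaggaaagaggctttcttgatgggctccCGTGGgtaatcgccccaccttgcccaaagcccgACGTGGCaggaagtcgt
B4galt1: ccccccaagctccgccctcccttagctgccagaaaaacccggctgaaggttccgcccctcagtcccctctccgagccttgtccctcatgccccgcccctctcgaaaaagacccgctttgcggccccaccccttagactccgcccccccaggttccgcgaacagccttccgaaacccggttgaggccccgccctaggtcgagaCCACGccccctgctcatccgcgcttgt
St6gal1: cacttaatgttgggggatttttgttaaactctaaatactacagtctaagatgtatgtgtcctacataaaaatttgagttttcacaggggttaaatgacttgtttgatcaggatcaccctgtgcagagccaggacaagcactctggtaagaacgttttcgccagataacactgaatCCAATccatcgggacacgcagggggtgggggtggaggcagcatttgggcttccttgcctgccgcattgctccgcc

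The motifs were searched on both strands of the whole windows. They were the NF-Y box CCAAT, the core CCACG, the ER stress element (CCAAT, then 9 bases of any kind, then CCACG), the unfolded protein response element TGACGTGG and the Golgi stress element ACGTGGC, which both hold CCACG on the other strand, the E-box CACGTG and the cAMP element TGACGTCA. Mgat2 has 2 CCAAT boxes, at -71 and -31 from its start. CCAAT was in 12 of the members' 38 windows, or 31.6%, and in 37.4% of all 32851 windows of the table. CCACG was in 14 of the 38, or 36.8%, and in 32.8% of all windows. By gene, CCAAT was in a window of Mgat2 and Man1a among the 4 genes that rose and had a window searched. B4galt6 and Uap1l1, which also rose, had none searched. Among the 2 genes that fell, CCAAT was in a window of St6gal1, which has 3 windows. CCACG was in a window of Slc35c1 and Man2a1 and of both genes that fell. ACGTGGC, which was added after the other motifs had been searched, was in 1 member's window, at -37 in Slc35c1, and in 2.58% of all windows. TGACGTCA was in 1 member's window, that of B4galt3, and in 1.79% of all windows. TGACGTGG, the ER stress element and CACGTG were in no member's window and in 0.676%, 0.119% and 7.15% of all windows. Shares of the members' windows cover only the genes searched and were not tested against those of all windows. A match is a run of letters and was not tested as a binding site.

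The Golgi mannosidases trim the N-glycan before and after the first branch is made. Man1a (ENSMUSG00000003746), an alpha-mannosidase of the first trimming step, was the most abundant of the 39 by CPM. In cage 4 mice 1, 2, 4 and 5 it had 261, 241, 268 and 248 CPM, the cage 2 mouse had 217, and chow mice 1 to 5 had 187, 202, 186, 202 and 214. Every western diet library lay above every chow library, which held for 4.44% of all genes tested. The mean was 247 ± 19.97 CPM with western diet and 198 ± 11.4 with chow (mean ± SD of 5 mice, log2 fold change 0.32 with SE 0.06, adjusted p = 0.00285 by edgeR).

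Man2a1 (ENSMUSG00000024085), the mannosidase that works after Mgat1 and opens the way for Mgat2, rose less. It had 78.9, 74.0, 82.3 and 80.2 CPM in cage 4 mice 1, 2, 4 and 5 and 70.5 in the cage 2 mouse, and 64.8, 65.1, 63.9, 70.1 and 75.1 in chow mice 1 to 5. The diets overlapped, since the cage 2 mouse and cage 4 mouse 2 lay below chow mouse 5. The means were 77.2 ± 4.81 and 67.8 ± 4.74 CPM (mean ± SD of 5 mice, log2 fold change 0.19 with SE 0.06, adjusted p = 0.0461 by edgeR). This call was the least stable of the 8, and held in 5 of 19 other settings, with an adjusted p over the 19 of 0.0201 to 0.163. With the mouse left out in turn, it was lost in each case other than the cage 2 mouse and chow mouse 5. The isoenzyme genes Man2a2 (0.11, adjusted p = 0.28) and Man1a2 (0.04, adjusted p = 0.616) were not called.

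Isoenzymes can be set side by side within a library, where no scaling factor enters. Reads per kilobase of Man1a exceeded those of Man1a2, which encodes the other isoenzyme of that step, by 2.26 ± 0.253 times on western diet and 1.87 ± 0.0639 times on chow (SD of 5 mice). The ratio was 2.54, 2.05, 2.52 and 2.20 in cage 4 mice 1, 2, 4 and 5 and 2.00 in the cage 2 mouse, and 1.79 to 1.96 in the chow mice, so the diets did not overlap. The ratio of Man2a1 to Man2a2 was 0.986 to 1.28 on western diet and 0.914 to 1.18 on chow, with overlap. These ratios are a description and were not tested.

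**Figure D2:**
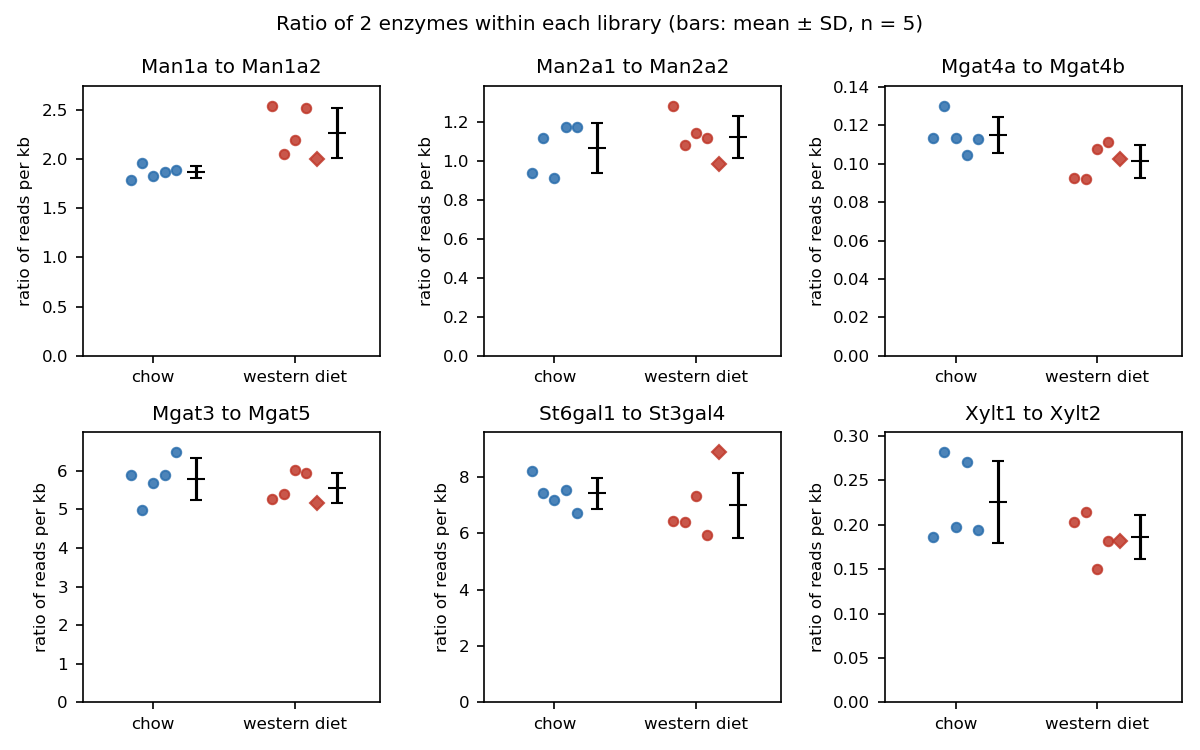
Ratio of reads per kilobase of 2 enzymes in each library, for 6 pairs (y axis, from 0), by diet. Circles are mice, the diamond is the cage 2 mouse, and bars are the mean and SD of 5 mice; the ratio of Man1a to Man1a2 is the one of the 6 in which the diets do not overlap.

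Among the 6 GlcNAc transferases of N-glycan branching, Mgat2 rose and 5 were not called. Mgat2 (ENSMUSG00000043998, GRCm38 chromosome 12, 69184157 to 69186770) adds the GlcNAc that starts the second antenna and so turns hybrid into complex N-glycans. It had 97.1, 101, 118 and 108 CPM in cage 4 mice 1, 2, 4 and 5 and 83.0 in the cage 2 mouse. Chow mice 1 to 5 had 51.6, 71.5, 65.2, 71.3 and 76.8. The diets did not overlap, and the cage 2 mouse lay nearest to chow. Its change was the largest of the 39, from 67.3 ± 9.67 to 101 ± 12.9 CPM (mean ± SD of 5 mice, log2 fold change 0.59 with SE 0.11, adjusted p = 0.00923 by edgeR).

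The other 5 branching enzymes were not called, with log2 fold changes from -0.17 to 0.01. Mgat1, which adds the first GlcNAc, had 54.8 ± 2.24 CPM with western diet and 54.4 ± 1.88 with chow (SD of 5 mice). Of the enzymes that add further branches, Mgat4b (log2 fold change 0.01 ± 0.08 SE) and Mgat5 (-0.03 ± 0.07 SE) were not called. Mgat3, whose bisecting GlcNAc blocks further branching, had -0.09 ± 0.05 (adjusted p = 0.262). Mgat4a, known for the GLUT2 glycan of beta cells, had 10.9 ± 0.897 CPM with western diet and 12.3 ± 0.750 with chow (mean ± SD of 5 mice, log2 fold change -0.17 with SE 0.09, adjusted p = 0.225 by edgeR). In 3 western diet libraries Mgat4a lay below every chow library. As a share of the reads per kilobase of these 6 genes, Mgat2 held 46.0% ± 3.90 on western diet and 35.3% ± 3.24 on chow (SD of 5 mice). The ratio of Mgat4a to Mgat4b was 0.101 ± 0.00875 and 0.115 ± 0.00929, and that of Mgat3 to Mgat5 was 5.56 ± 0.390 and 5.79 ± 0.534, each with overlap between the diets.

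**Figure D3:**
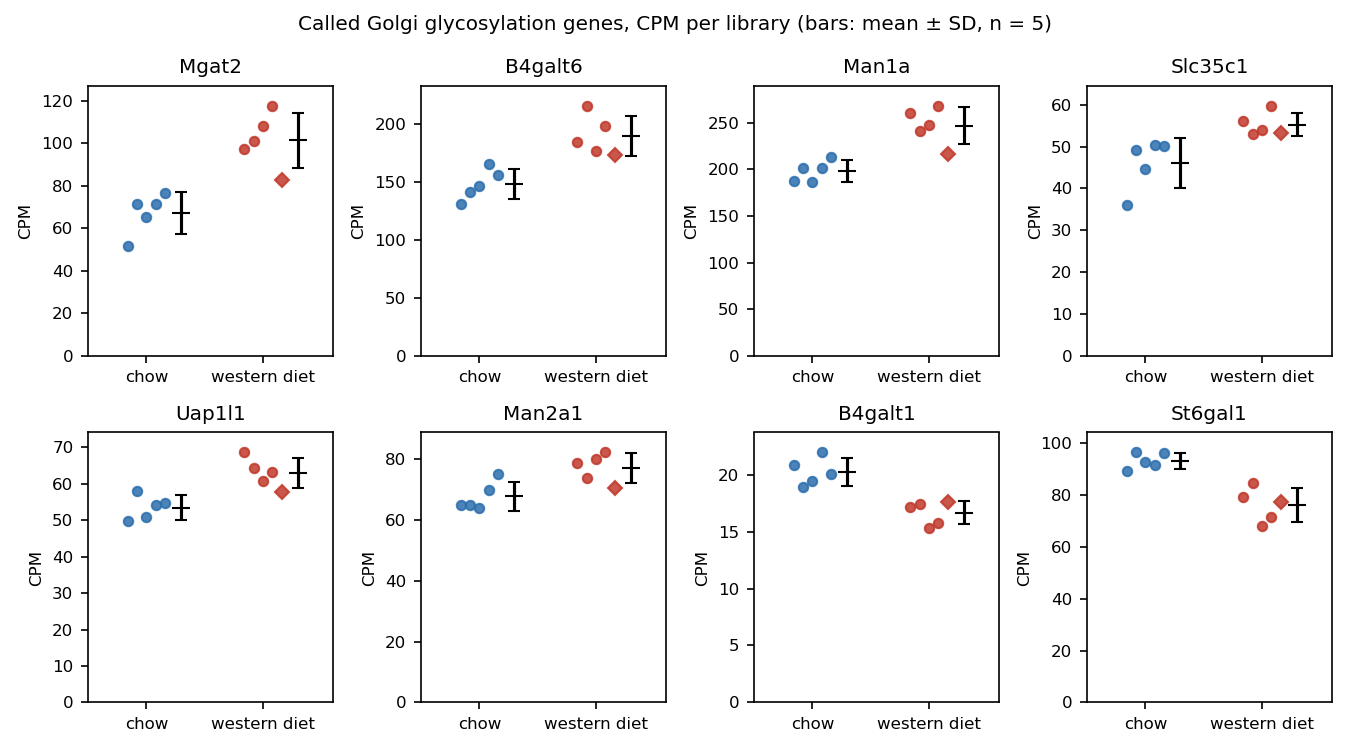
CPM of the 8 called genes in each library (y axis, from 0), by diet. Circles are mice, the diamond is the cage 2 mouse, and bars are the mean and SD of 5 mice; the diets do not overlap for Mgat2, B4galt6, Man1a, Slc35c1, B4galt1 and St6gal1 and overlap for Uap1l1 and Man2a1.

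The 7 beta-1,4-galactosyltransferases went in both directions. B4galt6 (ENSMUSG00000056124), one of the enzymes that make lactosylceramide, the base of most gangliosides, had 185, 216, 199 and 177 CPM in cage 4 mice 1, 2, 4 and 5 and 174 in the cage 2 mouse. Chow mice 1 to 5 had 131, 142, 147, 165 and 156, so the diets did not overlap. It rose from 148 ± 13.1 to 190.1 ± 17.3 CPM (mean ± SD of 5 mice, log2 fold change 0.36 with SE 0.07, adjusted p = 0.00354 by edgeR). B4galt6 held 50.3% ± 1.70 of the family's reads per kilobase on western diet and 45.1% ± 2.496 on chow. B4galt5, which encodes the other lactosylceramide synthase, was not called (0.08 ± 0.06 SE, adjusted p = 0.421).

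B4galt1 (ENSMUSG00000028413), the main galactosyltransferase of N-glycans in many tissues, fell. It had 17.2, 17.4, 15.8 and 15.3 CPM in cage 4 mice 1, 2, 4 and 5 and 17.6 in the cage 2 mouse, and 20.9, 18.9, 19.4, 21.9 and 20.03 in chow mice 1 to 5. The diets did not overlap, which held with western diet below for 4.42% of all genes tested. The means were 16.7 ± 1.03 and 20.2 ± 1.21 CPM (mean ± SD of 5 mice, log2 fold change -0.28 with SE 0.07, adjusted p = 0.0244 by edgeR). The call was lost without cage 4 mouse 5 (adjusted p = 0.0639) or 4 (0.058), and without chow mouse 1 (0.0512) or 4 (0.055).

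Another 4 galactosyltransferase genes were not called. B4galt3 came nearest, with 42.1, 46.8, 45.2 and 43.7 CPM in cage 4 mice 1, 2, 4 and 5, 43.2 in the cage 2 mouse, and 42.9, 39.3, 41.7, 38.9 and 36.6 in chow mice 1 to 5 (log2 fold change 0.15 ± 0.06 SE, edgeR adjusted p = 0.0994). Of western diet libraries 4 lay above all chow libraries. Exons of B4galt3 share 14.5% of their bases with Ppox on the other strand, so its reads are uncertain. B4galt4 had 0.22 ± 0.11, B4galt7, which builds the linker of proteoglycans, 0.12 ± 0.08, and B4galt2 -0.09 ± 0.10 (log2 fold change ± SE). B4galt2 shares 28.2% of its exon bases with Ccdc24, so its reads are uncertain too.

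Of the 7 sialyltransferases, St6gal1 fell and 6 were not called. St6gal1 (ENSMUSG00000022885) caps galactose of N-glycans with sialic acid and took the largest part of the group, 36.5% ± 1.63 of its reads per kilobase on western diet and 42.2% ± 0.752 on chow (SD of 5 mice). It had 79.3, 84.6, 71.5 and 68.0 CPM in cage 4 mice 1, 2, 4 and 5 and 77.4 in the cage 2 mouse, and 89.1, 96.3, 92.6, 91.6 and 96.3 in chow mice 1 to 5. Every western diet library lay below every chow library. The fall was from 93.2 ± 3.11 to 76.2 ± 6.52 CPM (mean ± SD of 5 mice, log2 fold change -0.29 with SE 0.06, adjusted p = 0.00414 by edgeR).

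St3gal3, which caps galactose through another linkage, had a value in the other direction. It had 28.1, 29.1, 27.0 and 23.0 CPM in cage 4 mice 1, 2, 4 and 5 and 26.2 in the cage 2 mouse, and 21.2, 26.7, 24.2, 23.7 and 23.1 in chow mice 1 to 5. The diets overlapped and the gene was not called (0.17 ± 0.08 SE, edgeR adjusted p = 0.169). The other 5 sialyltransferases lay between -0.19 (St3gal4, adjusted p = 0.39) and 0.08 (St3gal2, adjusted p = 0.544). St3gal1 had 47.7 ± 4.05 CPM with western diet and 47.6 ± 5.97 with chow (SD of 5 mice). St3gal6 shares 26% of its exon bases with Dcbld2 and St3gal4 14.1% with a transcript on the other strand, so the reads of both are uncertain. The ratio of St6gal1 to St3gal4 was 5.95 to 8.87 on western diet and 6.72 to 8.22 on chow.

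Some markers of other cell types of the islet preparation also differed with diet. The summed level of 13 duct markers was 796 to 920.4 CPM on western diet and 971 to 1138 on chow, and 4 of them were called lower, among them Krt8 and Krt19. Krt8 alone had a mean of 186 CPM on western diet and 333 on chow, and without it the sums overlapped, at 631 to 706 and 680.4 to 725 CPM. Krt19 has few reads and adds little to these sums, but it changed most of the duct markers tested, with no overlap between the diets. It fell from 3.58 ± 1.87 to 0.570 ± 0.307 CPM (mean ± SD of 5 mice, log2 fold change -2.64, adjusted p = 0.000737 by edgeR). Muc1 (-1.01) and Cldn4 (-0.20) were called lower too. Of the 12 duct markers tested 10 lay below 0, and the abundant Krt7 (log2 fold change 0.06) and Epcam (-0.0034) were not called. The summed level of 10 endothelial markers was 366 to 424.1 CPM on western diet and 424.9 to 471 on chow, with Kdr called lower. Without Kdr these sums overlapped too, at 278 to 334 and 308 to 359 CPM. Of the 9 endothelial markers tested 7 lay below 0, and only Kdr was called. Flt1 (-0.15, adjusted p = 0.0531 by edgeR) was lower in every western diet library than in every chow library. Cdh5 was at -0.29 (adjusted p = 0.0565 by edgeR) and Pecam1 at -0.05, while Plvap (0.05) and Emcn (0.08) lay above 0. For both whole lists the diets did not overlap (exact permutation test, two-sided, p = 0.00794, which is the smallest possible with 5 against 5, adjusted p = 0.0397 over 10 lists). Sums of acinar markers overlapped widely, at 945 to 6761 and 806 to 3387 CPM, and none of the 13 of these genes that were tested was called. Sums of stellate, leukocyte, Schwann, alpha, delta and PP cell markers overlapped too, with at most 2 genes called in each list. No listed marker was at 0 in all libraries. Their part in the changes of the 39 genes was not tested, and in bulk islets fewer cells of a type and less RNA per cell cannot be told apart.

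The remaining glycosyltransferase groups had no called gene. Fut8, which adds the core fucose, had 24.5 ± 1.33 CPM with western diet and 24.1 ± 0.678 with chow (SD of 5 mice). Of 6 genes for mucin-type O-glycans 0 were called. Galnt10, which like the other Galnt enzymes starts such glycans, came nearest. It had 80.1, 78.2, 77.5 and 78.5 CPM in cage 4 mice 1, 2, 4 and 5 and 70.5 in the cage 2 mouse, and 70.3, 72.0, 70.7, 69.3 and 72.8 in chow mice 1 to 5. The 4 cage 4 mice lay above all chow mice and the cage 2 mouse lay within them (0.11 ± 0.05 SE, edgeR adjusted p = 0.128, and 0.0494 without the cage 2 mouse).

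C1galt1, which makes the core 1 structure from the first sugar, was the most abundant per length of these 6 and had 183 ± 8.85 and 177 ± 8.38 CPM (mean ± SD of 5 mice, log2 fold change 0.05 with SE 0.05, adjusted p = 0.584 by edgeR). Galnt1 was at -0.07 and Galnt7 at 0.13 on the log2 fold change scale. Galnt2 was low, at 2.93 ± 0.484 and 2.81 ± 0.414 CPM, and its exons share 90% of their bases with Gm20388 on the same strand, so its reads are uncertain. Galnt3 had under 1 CPM, where a change was not detectable at this depth (log2 fold change -0.0022 ± 0.40 SE).

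Proteoglycan enzymes were 3 in number and none was called. Chst11, a sulfotransferase of chondroitin, had 148 ± 6.22 CPM with western diet and 139 ± 8.36 with chow (mean ± SD of 5 mice, log2 fold change 0.09 with SE 0.05, adjusted p = 0.253 by edgeR). The xylosyltransferase genes Xylt2 (0.11 ± 0.08 SE) and Xylt1 (-0.17 ± 0.13 SE), which start the chains, had values of opposite sign. The ratio of Xylt1 to Xylt2 per kilobase was 0.150 to 0.214 on western diet and 0.187 to 0.281 on chow, with overlap.

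Among the 4 SLC35 transporters Slc35c1 rose. Slc35c1 (ENSMUSG00000049922), which carries GDP-fucose into the Golgi, had 56.1, 53.1, 59.7 and 54.0 CPM in cage 4 mice 1, 2, 4 and 5 and 53.2 in the cage 2 mouse. Chow mice 1 to 5 had 36.1, 49.1, 44.6, 50.4 and 50.2, and the diets did not overlap. Chow mouse 1 lay far below the other chow mice. The means were 55.2 ± 2.79 and 46.1 ± 6.05 CPM (mean ± SD of 5 mice, log2 fold change 0.26 with SE 0.08, adjusted p = 0.04 by edgeR). The call was lost without any one of the 4 cage 4 mice (adjusted p = 0.0578 to 0.111), and without chow mouse 1 (0.0776, log2 fold change 0.18) or 3 (0.0973).

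Slc35a2, the UDP-galactose transporter, was not called. It had 38.2, 36.5, 38.7 and 41.0 CPM in cage 4 mice 1, 2, 4 and 5 and 38.4 in the cage 2 mouse, and 28.7, 38.7, 31.4, 35.5 and 34.6 in chow mice 1 to 5. Chow mouse 2 lay within the western diet range (0.19 ± 0.07 SE, edgeR adjusted p = 0.0938, and 0.032 without chow mouse 2). Slc35a1, which carries CMP-sialic acid, had 0.06 ± 0.06 and Slc35b1 0.02 ± 0.06 (log2 fold change ± SE), and neither was called. Slc35b1, which has been assigned ATP exchange across the ER membrane, was the most abundant of the 39 per length, at 46.9 CPM per kilobase.

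Uap1l1 (ENSMUSG00000026956), a relative of the cytosolic enzyme that makes UDP-GlcNAc, rose. It had 68.6, 64.3, 63.1 and 60.8 CPM in cage 4 mice 1, 2, 4 and 5 and 57.8 in the cage 2 mouse, and 49.7, 58.0, 50.8, 54.1 and 54.8 in chow mice 1 to 5. Only chow mouse 2 reached the western diet range, just above the cage 2 mouse. The means were 62.9 ± 4.05 and 53.5 ± 3.33 CPM (mean ± SD of 5 mice, log2 fold change 0.23 with SE 0.06, adjusted p = 0.0155 by edgeR). The call was lost without chow mouse 1 (0.0512) or 3 (0.0516).

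Some libraries were low or high across several of these genes. The cage 2 mouse was the lowest western diet library for 5 of the 6 genes that rose, all but Slc35c1, and chow mouse 1 was the lowest chow library for 4 of the 6. Cage 4 mouse 4 was the highest western diet library for 4 of the 6. Over all 39 genes the cage 2 mouse was the lowest of its diet for 12 and cage 4 mouse 5 for 11. Chow mouse 1 was the lowest of its diet for 15 and chow mouse 3 for 10. Cage 4 mouse 2 and chow mouse 5 were each the highest of their diet for 12. The cage 2 mouse and chow mouse 1 also stood out on the first principal component of all genes tested, which held 24.2% of the variance. On it chow mouse 1 was the farthest from western diet and the cage 2 mouse was the western diet library nearest to chow. Their part in the values was measured by leaving them out, as given above.

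Levels between genes were compared per kilobase of gene length as the table gives it, as a description. They ran from 46.9 CPM per kilobase for Slc35b1 to 0.134 for Galnt3. After Slc35b1 came Mgat2 (32.3), C1galt1 (29.6), B4galt6 (29.1), Chst11 (25.9), Man1a (23.1) and Mgat3 (21.5). Of the genes that fell, St6gal1 stood 9th with 17.2 and B4galt1 25th with 4.36. Mgat4a (0.902), Xylt1 (0.815), Galnt2 (0.670) and Galnt3 were the lowest. The place of Galnt2 is uncertain, since its exons share 90% of their bases with Gm20388.

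**Figure D4:**
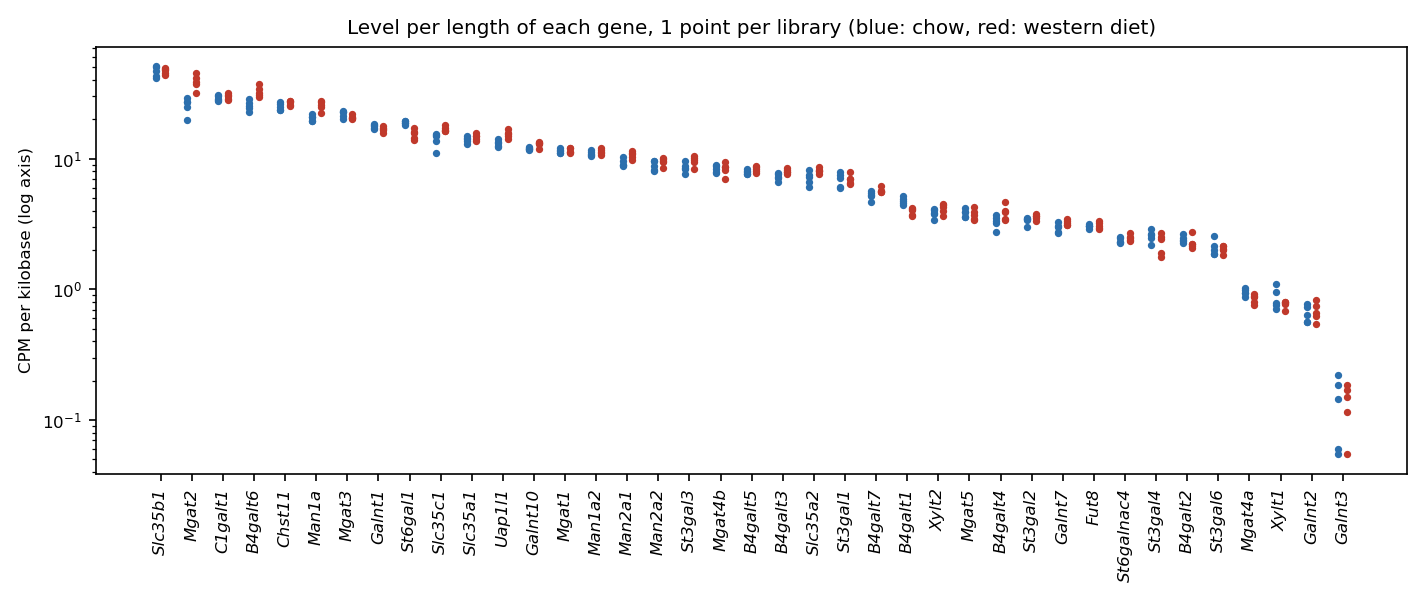
CPM per kilobase of gene length (log axis) of the 39 genes, ordered by their mean, with 1 point per library (blue chow, red western diet). Levels run from 46.9 for Slc35b1 to 0.134 for Galnt3, and for most genes the points of the diets lie on top of each other.

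Other genes of glycosylation gave the setting of these changes. A list of 114 genes, none of them among the 39, covered other donor transporters, nucleotide sugar synthesis, glycolipids and further Golgi enzymes. It matched 115 rows, since St6galnac2 has 2 identifiers, and 98 passed the filter on low counts. Of the 98, 16 rose and 4 fell, or 16.3% and 4.08%, with a median log2 fold change of 0.07. Over all genes tested the shares were 5.27% higher and 5.5% lower. The 16 were 7 without cage 4 mouse 5 or chow mouse 1, and 8 without cage 4 mouse 4 or chow mouse 3. The 4 that fell were 2 without both the cage 2 mouse and chow mouse 1.

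Of 16 genes listed as other transporters of nucleotide sugars, sulfate donors and ions of the Golgi, 7 rose and 0 fell, with a median of 0.22. The shares were 43.75% and 0%, against 5.27% higher and 5.5% lower over all genes tested. The 7 that rose are named here. They included Slc35b4, a transporter of UDP-GlcNAc and UDP-xylose, from 65.1 ± 1.45 to 77.9 ± 4.64 CPM (mean ± SD of 5 mice, log2 fold change 0.26 with SE 0.05, adjusted p = 0.00403 by edgeR). Slc35c2 (0.34), Slc35a4 (0.23), the Golgi zinc transporter gene Slc39a9 (0.23) and Tmem165 (0.30), which supports manganese supply to Golgi glycosyltransferases, rose as well, each with no overlap between the diets. Slc35e1 (0.22) and Slc35f5 (0.21) rose with overlap between the diets, and were named after their values were seen. Of 20 tested genes of nucleotide sugar synthesis 4 rose and 0 fell, or 20% and 0%, with a median of 0.15. All 4 were chosen for naming after their values were seen. They were Gne (0.20), Nans (0.31) and Cmas (0.23), which make sialic acid and activate it, and Gmppb (0.21), which makes GDP-mannose.

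Among the remaining lists the called genes were few. Shares higher and lower were 6.25% and 12.5% for mucin-type O-glycans and 11.1% and 3.70% for proteoglycans. They were 0% and 8.33% for other N-glycan genes and 14.3% and 0% for glycolipids. Over all genes tested they were 5.27% and 5.5%. Of 16 tested genes of mucin-type O-glycans, Gcnt2, which branches glycan chains, rose from 61.2 ± 2.94 to 74.8 ± 3.37 CPM (mean ± SD of 5 mice, log2 fold change 0.29 with SE 0.05, adjusted p = 0.00195 by edgeR), while Galnt18 (-0.59) and Galnt14 (-0.29) fell. Galnt18 had 53.1 ± 2.89 CPM with western diet and 79.8 ± 10.8 with chow. Of 27 proteoglycan genes, 3 that make or sulfate chondroitin rose (Chst12 0.45, Chsy1 0.50 and Chpf 0.25, named after their values were seen) and Fam20b (-0.16), a kinase of the linker sugar, fell. Of 12 other N-glycan genes 0 rose and St8sia2, a polysialic acid synthase, fell at a low level, from 1.54 ± 0.451 to 0.570 ± 0.132 CPM. Of 7 glycolipid genes 1 rose and 0 fell. It was St3gal5 (0.28, named after its value was seen), which makes the ganglioside GM3 from the product of B4galt6.

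**Figure D5:**
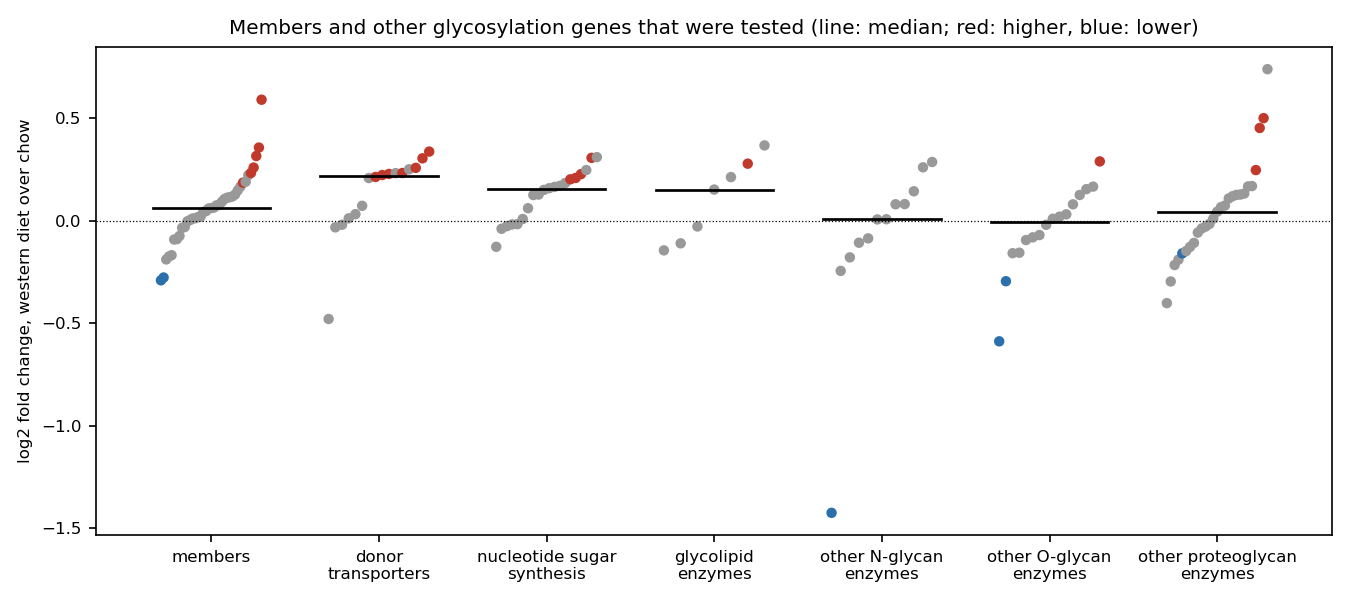
Log2 fold change of western diet over chow (y axis) for the 39 genes and for the tested genes of 6 other glycosylation lists, sorted within each list, with the list's median as a line. The transporter list has the highest median, 0.22, with 7 genes called higher (red) and 0 called lower (blue).

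The authors' deposited table called 8 of the 39 genes at an adjusted p under 0.05. In the authors' deposited table these were the 6 named above as higher and the 2 named as lower, with log2 fold changes of 0.59 for Mgat2, 0.36 for B4galt6, 0.32 for Man1a and -0.29 for St6gal1. The authors' deposited table calls 6.18% of the 15104 genes higher and 6.61% lower at the same threshold.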

How the data were processed

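Read counts per gene were deposited by the authors as whole numbers, not normalized, in 1 table for all 10 libraries. The submitters' processing notes name STAR 2.5, HTSeq 2 and DESeq2 and the builds mm10 and GRCm38, with no order of steps. The library kit was NEBNext Ultra, per the labels' protocols. Whether counting used strand is not given in the sources used, so reads of overlapping genes cannot be told apart. The deposited table also holds the authors' log2 fold changes, adjusted p-values and gene lengths. A further 20 per-sample columns of other values were not used.

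Counts of 15104 genes kept by filterByExpr (minimum count 10) were scaled with TMM factors and compared between diets in edgeR 4.0.16 (R 4.3.3) with a robust quasi-likelihood fit without covariates. P-values were adjusted by Benjamini-Hochberg over all of them, and a gene was called under 0.05. SE was derived from the log2 fold change and the F statistic. In counts simulated for western diet against chow over 14908 genes, the changed genes were drawn from those with at least 5 CPM. The test recovered 29 of 50 genes at 1.25-fold, 44 of 50 at 1.5-fold and 50 of 50 at 2-fold, and 9 of 14708 unchanged genes were called. Recovery below 5 CPM, where Galnt2 and Galnt3 lie, was not measured. Alternatives were upper quartile or RLE factors, no filter, a minimum of 5 CPM, DESeq2 1.42.0, limma-voom (limma 3.58.1), no robust moderation, a block for mouse number, and omission of each mouse in turn. Leaving out 2 mice together, and marker sums without Krt8 or Kdr, were added after seeing the data.

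The 39 genes, the lists and the tests were chosen with earlier results of these data known. All members may be named, with values per library for called members and the 4 uncalled ones with the smallest adjusted p. Of the other glycosylation genes, up to 6 higher and 6 lower with the smallest p were named, and others are marked. All 39 had the coordinates of GENCODE M21 (GRCm38), which gave the exon overlaps. Within each diet no pair of libraries agreed within counting noise, with a chi-square per degree of freedom of at least 6.59.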

Additional observations from a re-analysis of the deposited data

Results flagged for a closer look

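In 4 of 78 groups of 5 libraries (39 genes in each diet), 1 library stood apart from the other 4 by Dixon's test at its 95% critical value, and chance gives about 1 in 20. All 4 were on western diet. B4galt7 had 17.8 CPM in cage 4 mouse 1, with the other 4 mice at 16.01 to 16.4. B4galt2 had 13.9 CPM in cage 4 mouse 4, with the others at 10.5 to 11.2. Galnt10 had 70.5 CPM in the cage 2 mouse, with the others at 77.5 to 80.1. Xylt1 had 6.55 CPM in cage 4 mouse 5, with the others at 7.41 to 7.75.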

How the results depend on the processing

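Calls of Mgat2, B4galt6, Man1a and St6gal1 held in all 19 other settings, Uap1l1 in 16, B4galt1 in 14, Slc35c1 in 10 and Man2a1 in 5. Over the 39 genes and these settings, 669 values kept direction and side of the threshold, 31 lost the call, 2 gained it and 36 changed sign. With mouse number as a replicate block, 841 genes were called in place of 1627, with 3 of the 39 genes higher and 1 lower, and 6 other glycosylation genes higher and 2 lower. The blocks were not balanced. Number 3 had no western diet mouse, so chow mouse 3 adds nothing to the comparison of diets in that fit. Number 5 was held by cage 4 mouse 5, the cage 2 mouse and chow mouse 5. Deviations of same-numbered mice had correlations of -0.129 to 0.048, and those of other pairs across the diets -0.206 to 0.224. With so few same-numbered pairs, these values cannot show whether such mice share more than a number. Leaving out each mouse gave 938 to 1813 genes called, 3 to 7 of the 39 higher and 1 to 2 lower, and 7 to 17 other glycosylation genes higher. Without both the cage 2 mouse and chow mouse 1, 2 other glycosylation genes were lower. Fewer mice entered the fits that left mice out. Otherwise the cause was not tested.

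Sign changed in uncalled genes near 0. Galnt3 was at 0.0092 without a filter, 0.080 in limma-voom and 0.11 with the block. With upper quartile factors Mgat1 was at -0.0012 and St3gal1 at -0.0093, and with RLE factors St3gal1 was at -0.0013. With a minimum of 5 CPM Mgat1 was at -0.0058, Mgat4b at -0.0042 and St3gal1 at -0.014. Without both mice Mgat4b was at -0.029 and St3gal6 at 0.026. Leaving out each mouse gave -0.0044 to 0.045 for Fut8, -0.021 to 0.13 for Galnt2, -0.19 to 0.25 for Galnt3, -0.0091 to 0.028 for Mgat1 and -0.030 to 0.071 for Mgat4b. It gave -0.081 to 0.0088 for Mgat5, -0.017 to 0.047 for Slc35b1, -0.052 to 0.049 for St3gal1 and -0.080 to 0.044 for St3gal6. Depth limits Galnt3, which had under 1 CPM.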
